A study of Mus musculus with 15 samples.

Results

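The genes described here encode the nuclear subunits of mitochondrial respiratory complexes II, III and IV and of ATP synthase (complex V), together with cytochrome c. They were chosen by symbol: Sdha, Sdhb, Sdhc, Sdhd, Cyc1 and Cycs, and every gene whose symbol starts with Uqcr, Cox4, Cox5, Cox6, Cox7, Cox8 or Atp5. By this rule 48 genes on the array were members, measured by 96 of its 45037 gene probe sets. Complex II gave 4 genes, complex III 9, complex IV 17, complex V 17, and cytochrome c (Cycs) 1. Each gene was represented by its brightest probe set, and 45 of the 48 passed the filter on low signal that left 12701 genes for testing.

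RNA came from a mouse dendritic cell line of the A/J strain, which the labels trace to newborn epidermis, so every group shares that line and strain. There were 3 arrays in each of 5 groups: cells given DNFB, cells given H2O2 (hydrogen peroxide), cells given DPI, cells given DPI together with DNFB, and non-treated cells. The study's design names a chemical allergen, hydrogen peroxide and an inhibitor of reactive oxygen species (ROS); DNFB is a contact allergen in wide use, and the labels spell out neither DNFB nor DPI. Doses and exposure times are not given, nor whether the non-treated cells received vehicle. No label says whether the 3 samples of a group were separate cultures, and p-values therefore measure the spread between these samples, which may be technical.

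In the respiratory chain, electrons from succinate enter through complex II, which is also an enzyme of the citric acid cycle, and pass through ubiquinone to complex III. Cytochrome c carries them on to complex IV, which reduces oxygen, and the proton gradient built by complexes I, III and IV drives ATP synthesis by complex V. Most subunits of these complexes are encoded in the nucleus, a few core subunits of complexes I, III, IV and V are encoded in mitochondrial DNA, and complexes I and III are known sites of ROS production.

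Signals are MAS5 intensities, rescaled here so that every array has the same 2% trimmed mean of 500, and differences are on the scale of log2(signal + 15). Members were bright: 38 of the 48 lay in the top 10% of mean signal among tested genes, although brightness depends on the probe set as well as on the transcript. The faintest member that passed the filter was Cox4i2, with a mean log2 signal of 6.92 against a cut of 6.22, and the brightest of those below it was Cox6b2 at 5.94. All 16 dendritic cell markers looked for were above the filter, with a summed signal of 106200 to 140200 per array. Of the markers of other skin cells, 3 of 9 for keratinocytes, 2 of 8 for fibroblasts, 3 of 6 for melanocytes and 1 of 4 for T cells were above it, with summed signals of at most 1097 per array. Replicate arrays of a group correlated at 0.946 to 0.973. The DPI + DNFB arrays stood apart in their RNA controls: their beta-actin 3'/5' signal ratio was 2.07, 1.50 and 2.29, against 1.19 to 1.53 on the other 12 arrays, their Gapdh 3'/5' ratio was 1.09, 0.952 and 1.27, against 0.814 to 0.922, and their median signal was 112.6 to 131.6, against 92.59 to 113.7.

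**Figure D1:**
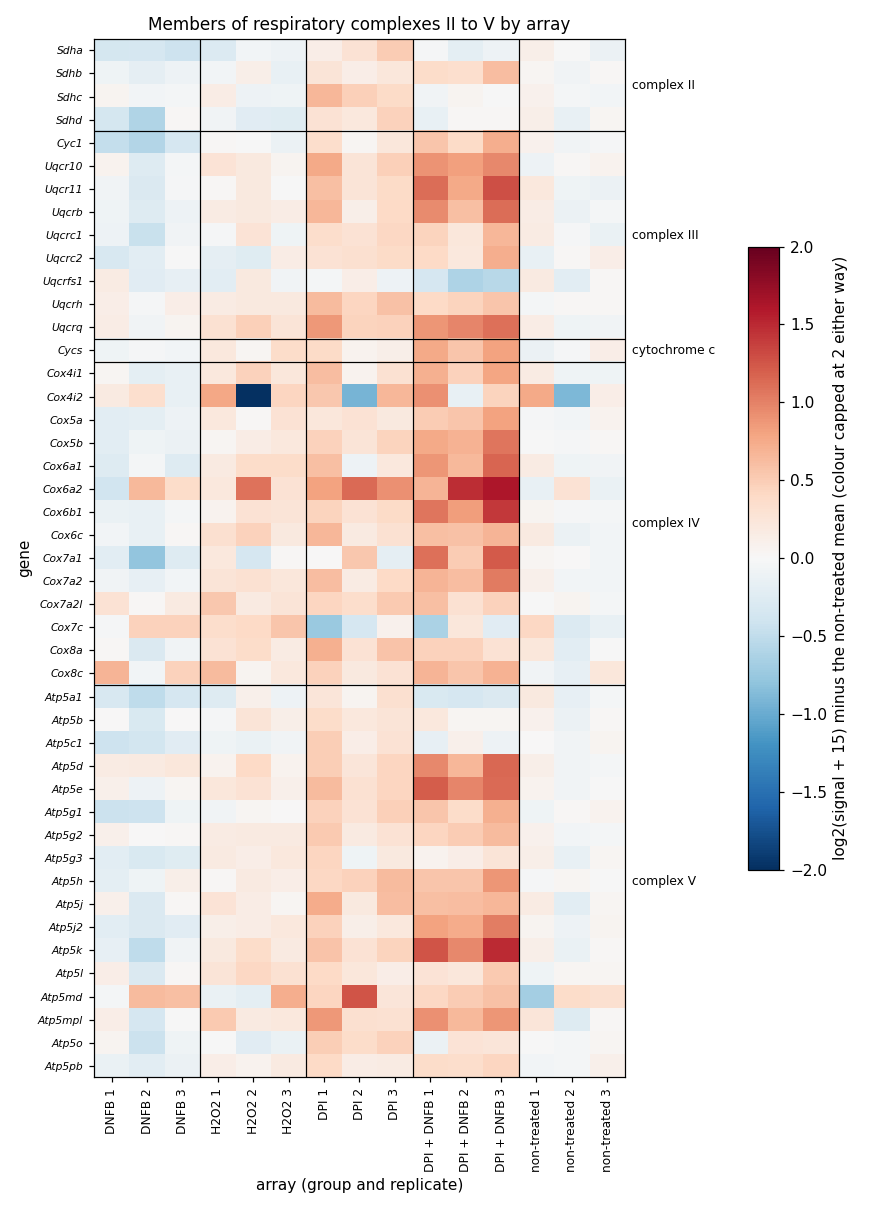
Each row is 1 of the 45 tested members, ordered by complex, and each column is 1 of the 15 arrays; colour is log2(signal + 15) minus the mean of the 3 non-treated arrays, capped at 2 in either direction. Most members of complexes III, IV and V were high on the DPI + DNFB arrays and, to a smaller extent, on the DPI arrays, while Uqcrfs1 and Atp5a1 were low with DPI + DNFB.

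Taken as the mean log2 signal of the 45 tested members, the level was 13.17 ± 0.11 with DPI + DNFB, 12.98 ± 0.11 with DPI, 12.77 ± 0.013 with H2O2, 12.54 ± 0.076 with DNFB and 12.63 ± 0.073 in non-treated cells (SD, n = 3 each). The 3 DPI + DNFB arrays ran from 13.07 to 13.29 and the 3 DPI arrays from 12.87 to 13.09, so those groups overlapped, and both lay above all 9 arrays of the other groups. The DNFB arrays, 12.46 to 12.60, overlapped with the non-treated arrays, 12.55 to 12.70. In bulk RNA, fewer cells of a kind and less RNA per cell cannot be told apart.

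DNFB alone was compared with non-treated cells to see how the allergen by itself moved these genes. With DNFB, 5 of the 45 tested members fell and 0 rose. Across all tested genes 13.9% fell and 10.5% rose, so the share of members that fell, 11.1%, was near the background. Among the 1271 genes in the top 10% of mean signal 18.3% fell. The median over the members was -0.099, beside -0.055 over all genes. Within the 6 arrays deposited at a trimmed mean of 250 the members' median was -0.17, and within the 9 deposited at 500 it was -0.18.

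The fallers were spread over complexes II, III and V. Cyc1 (chr15:76343513-76346260, GRCm38.p6), the cytochrome c1 subunit of complex III that hands electrons to cytochrome c, had signals of 6415, 5972 and 7078 on the DNFB arrays, against 9531, 8535 and 8822 on the non-treated arrays. The groups did not overlap, and the difference was -0.47 ± 0.11 (SE) on the log2 scale, adjusted p = 0.00348. Atp5a1 (chr18:77773768-77782869), the alpha subunit of the catalytic head of ATP synthase, had 7882, 6901 and 7815 with DNFB, against 11304, 8765 and 9629.8 in non-treated cells. All 3 DNFB arrays were below the lowest non-treated array (-0.39 ± 0.12 (SE) on the log2 scale, adjusted p = 0.0167).

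Sdha (chr13:74322255-74350240), the flavoprotein of complex II that oxidises succinate, had 2271, 2297 and 2175 with DNFB, against 3149, 2879 and 2662 in non-treated cells. The DNFB values were close together and below every non-treated value (-0.36 ± 0.11 (SE) on the log2 scale, adjusted p = 0.0217). Atp5c1, the gamma subunit that forms the rotating stalk, fell by 0.34 ± 0.11 on the log2 scale (adjusted p = 0.0252). Atp5g1, which encodes the ring subunit c, had 3841, 3869 and 4858 with DNFB, against 4851, 5234 and 5451 in non-treated cells, so DNFB replicate 3 lay just inside the non-treated range (-0.31 ± 0.11 (SE) on the log2 scale, adjusted p = 0.0486). The count of falls was 1 without non-treated replicate 1, 2 (with 1 rise) without DNFB replicate 2, and 3 without non-treated replicate 2 or 3 or DNFB replicate 1.

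The other subunits named whatever their values did not pass with DNFB. Sdhb, the iron-sulfur subunit of complex II, differed by -0.12, Sdhc by -0.013 and Sdhd by -0.31, the last 2 being its membrane anchors. Cycs differed by -0.053, Uqcrc1, a core protein of complex III, by -0.21, and Uqcrfs1, its Rieske iron-sulfur protein, by -0.079. In complex IV, Cox4i1 differed by -0.10 and Cox5a by -0.17, and Atp5b, the catalytic beta subunit of ATP synthase, by -0.10.

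H2O2 was compared with non-treated cells as a direct source of ROS. Of the 45 members, 3 rose and 0 fell, where 10.9% of all genes rose and 17.4% fell, and 20.7% rose among genes in the top 10% of mean signal. The members' median was 0.17, beside -0.065 over all genes, and it was 0.055 within the arrays deposited at 250 and 0.17 within those deposited at 500. Uqcrq, a small subunit of complex III, had 5983, 6760.4 and 5794 with H2O2, against 5343, 4579 and 4626 in non-treated cells. The groups did not overlap (0.35 ± 0.12 (SE) on the log2 scale, adjusted p = 0.032). Cox7a2l, known for joining complex III to complex IV in supercomplexes, had 7394, 5757 and 6078 with H2O2, against 5039.8, 5251 and 4918 in non-treated cells, again without overlap (0.33 ± 0.11 (SE) on the log2 scale, adjusted p = 0.0326). Its other kept probe sets were at 0.16 (adjusted p = 0.374) and 0.045 (adjusted p = 0.828) and did not pass. Atp5l, subunit g of the membrane part of ATP synthase, had 11127, 12456 and 11439 with H2O2, against 8750.4, 9573 and 9589.9 in non-treated cells, and all H2O2 values were higher (0.33 ± 0.12 (SE) on the log2 scale, adjusted p = 0.0424). None of the 3 passed after quantile normalization, where 0 members rose and 1, Atp5c1, fell, or after median centring, and the members' median was -0.00185 after quantile normalization. Leaving out non-treated replicate 2, non-treated replicate 3 or H2O2 replicate 1 also left 0 rises, and leaving out H2O2 replicate 2 left 1.

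Set directly against each other, DNFB gave lower values than H2O2 for 9 of the 45 members and higher values for 0, where 6% of all genes were lower and 8.75% higher. Among the genes in the top 10% of mean signal, where most members lie, 17.9% were lower, so the members' share of 20% was near that background. The members' median was -0.26, beside 0.011 over all genes, and it was -0.21 within the arrays deposited at 250 and -0.36 within those deposited at 500. The 9 were Cyc1 of complex III, Cox5a, Cox6a1, Cox6c and Cox8a of complex IV, and Atp5g3, Atp5j2, Atp5k and Atp5l of complex V. Atp5k, subunit e of ATP synthase, had 8008, 6323 and 8532 with DNFB, against 10350.3, 11581 and 10250.2 with H2O2, without overlap (-0.50 ± 0.14 (SE) on the log2 scale, adjusted p = 0.0159). For Cyc1 the DNFB signals given above lay below 9131, 8911 and 8243 with H2O2 (-0.43 ± 0.11 (SE) on the log2 scale, adjusted p = 0.0112). Cox6a1, a nuclear-encoded subunit of complex IV, had 29553, 34119 and 29321 with DNFB, against 39900.1, 45534 and 45541 with H2O2, and the groups were apart (-0.49 ± 0.15 (SE) on the log2 scale, adjusted p = 0.0361). The count was unstable: it was 1 without DNFB replicate 2, 3 without H2O2 replicate 3, 4 without H2O2 replicate 2 and 5 without DNFB replicate 3, and it was 14 when only the groups compared were fitted.

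With DPI alone many of these genes were higher than in non-treated cells. It was compared to learn what the inhibitor does without the allergen. Of the 45 members 25 rose and 0 fell, or 55.6% and 0%, where 13.3% of all genes rose and 18.4% fell. The median over the members was 0.35, beside -0.0065 over all genes, and it was 0.45 within the arrays deposited at 250 and 0.34 within those deposited at 500. Among the 1271 genes in the top 10% of mean signal, 31.2% rose and the median was 0.17. By complex, 2 of 4 tested members of complex II rose, 6 of 9 of complex III, 7 of 14 of complex IV and 10 of 17 of complex V, while Cycs did not pass (0.19, adjusted p = 0.24).

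On their brightest probe sets, both the succinate-oxidising and an anchoring subunit of complex II were among the risers. Sdhc, a membrane anchor, had 3341, 2937 and 2749 with DPI, against 2235, 2047 and 2035 in non-treated cells. All DPI values were well above the non-treated values (0.51 ± 0.11 (SE) on the log2 scale, adjusted p = 0.00107). Sdha had 3166, 3549 and 4120 with DPI, and its lowest DPI value was only just above the highest non-treated value of the 3 given above (0.31 ± 0.11 (SE) on the log2 scale, adjusted p = 0.0386). Neither gene passed on its second probe set, where Sdhc was at 0.26 (adjusted p = 0.281) and Sdha at 0.17 (adjusted p = 0.345). A faint further probe set of Sdha was at -0.675 (adjusted p = 0.463). Sdhb and Sdhd differed by 0.21 (adjusted p = 0.127) and 0.32 (adjusted p = 0.0723) and did not pass.

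In complex III, Uqcrq had 8796, 6593 and 6691 with DPI, all above its non-treated signals (0.59 ± 0.12 (SE) on the log2 scale, adjusted p = 0.000695). Uqcrh, the hinge protein that sits beside cytochrome c1, had 13017, 11275 and 12555 with DPI, against 8122, 8512 and 8459 in non-treated cells. The smallest DPI value exceeded the largest non-treated value (0.55 ± 0.092 (SE) on the log2 scale, adjusted p = 0.000122). Uqcr10, another small subunit, rose 1.42-fold (0.50 ± 0.12 (SE) on the log2 scale, adjusted p = 0.00367). Uqcr11 rose by 0.42 and Uqcrb by 0.39 on the log2 scale. The core protein Uqcrc1 rose by 0.35 with an adjusted p at the threshold itself (0.05 after rounding). Uqcrfs1 had 4282, 4788 and 4101 with DPI, against 4986, 3784 and 4454 in non-treated cells. Those values overlapped fully, and the difference was 0.00021 on the log2 scale.

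In complex IV the largest rise was that of Cox6a2, the isoform of subunit 6A that is known from heart and skeletal muscle. Its signals were 681, 863 and 736 with DPI, against 344, 471 and 351 in non-treated cells, with no overlap (0.95 ± 0.27 (SE) on the log2 scale, adjusted p = 0.0116). Cox8a, a small subunit of the ubiquitous form of the enzyme, had 12666, 9459 and 11467 with DPI, against 9026, 6639 and 7682 in non-treated cells (0.53 ± 0.13 (SE) on the log2 scale, adjusted p = 0.00354). The DPI values were all higher, and the lowest of them was close to the highest non-treated value. Cox5b, Cox6b1, Cox6c, Cox7a2 and Cox7a2l also rose, by 0.38 to 0.43. On its other kept probe sets Cox7a2l was at 0.23 (adjusted p = 0.141) and 0.11 (adjusted p = 0.507) and did not pass. Cox4i1 (0.33) and Cox5a (0.23) did not pass.

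In complex V, Atp5h, subunit d of the peripheral stalk, had 22405, 23107 and 26019 with DPI, against 16406, 17193 and 16647 in non-treated cells. These did not overlap (0.51 ± 0.11 (SE) on the log2 scale, adjusted p = 0.00173). Atp5j, the coupling factor 6 subunit, rose by 0.52 and Atp5mpl, a small membrane-part protein, by 0.50. Atp5e, the epsilon subunit of the central stalk, had 8398, 6708 and 7281 with DPI, against 5720.3, 5177 and 5388 in non-treated cells, and was higher on all 3 DPI arrays (0.45 ± 0.11 (SE) on the log2 scale, adjusted p = 0.00273). Atp5o, the subunit that joins the head to the stalk, rose by 0.44, Atp5k by 0.43, Atp5g1 by 0.41, Atp5d by 0.38, Atp5g2 by 0.33 and Atp5c1 by 0.31. On a second, faint probe set Atp5g2 went the other way and passed (-2.29, adjusted p = 0.00102), and Atp5c1 was at -0.083 (adjusted p = 0.875). Atp5b (0.28, adjusted p = 0.0655) and Atp5a1 (0.20, adjusted p = 0.197) did not pass.

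The count of 25 was 13 without non-treated replicate 2, 14 without DPI replicate 1, 15 without non-treated replicate 3, 16 without DPI replicate 3, 15 without a trend of the variance on signal and 11 after quantile normalization. It was 11 within the arrays deposited at 250 and 12 within those deposited at 500, but those counts rest on few arrays. At 250 every group but DNFB had 1 array, and the spread came from the 2 DNFB arrays alone, with 1 residual degree of freedom. At 500 DPI and non-treated cells had 2 arrays each and the fit had 4 residual degrees of freedom.

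**Figure D2:**
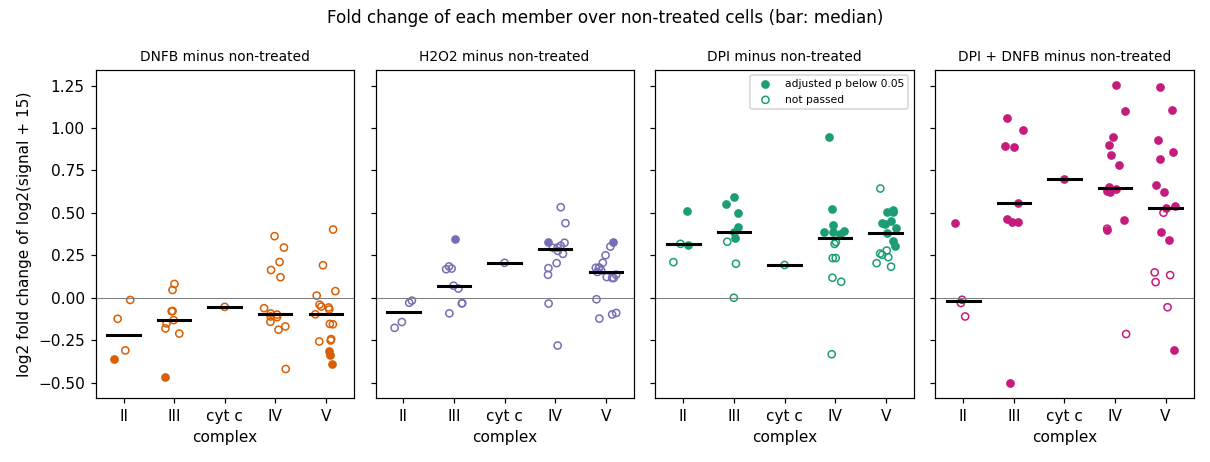
Each point is the log2 fold change of 1 tested member over non-treated cells, by complex (x axis) and comparison (panels); filled points passed an adjusted p of 0.05, open points did not, and bars are medians. With DPI + DNFB the medians were 0.56 for complex III, 0.65 for complex IV and 0.53 for complex V, and -0.021 for complex II.

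With DPI and DNFB together most of these genes were higher than in non-treated cells. Of the 45 members, 33 rose and 2 fell against non-treated cells, or 73.3% and 4.44%, where 15% of all genes rose and 18.7% fell. Among the 1271 genes in the top 10% of mean signal 35.6% rose. The members' median was 0.56, beside 0.024 over all genes, and it was 0.54 within the arrays deposited at 250 and 0.60 within those deposited at 500. Rises were seen in 8 of 9 tested members of complex III, 12 of 14 of complex IV, 11 of 17 of complex V, Cycs, and 1 of 4 of complex II. Falls were Uqcrfs1 and Atp5a1. Of the 25 members that rose with DPI alone, 21 also rose here, and the non-treated arrays are shared between those comparisons.

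The RNA controls moved with this group, as given above. With the beta-actin ratio as a covariate 8 members rose and 0 fell. In that fit 1068 genes passed in all, against 4291 without the covariate. The members' median was 0.44, beside -0.0080 over all genes. In replicate 2 the beta-actin ratio of 1.50 lay within the range of the other groups, but the Gapdh ratio of 0.952 lay above all 12 of theirs. With replicate 2 as the lone DPI + DNFB array the members' median was 0.50, beside -0.014 over all genes. On that array the members' mean log2 signal was 13.07. On DNFB replicate 2, with a beta-actin ratio of 1.53 and a Gapdh ratio of 0.908, it was 12.46. The RNA controls and the treatment moved together in this group, and their parts in the members' level were not tested. After centring each array on its median 20 rose and 2 fell, with a median of -0.23 over all genes and 0.31 over the members. After quantile normalization 23 rose and 4 fell, and the members' median was 0.24, beside -0.0046 over all genes.

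**Figure D3:**
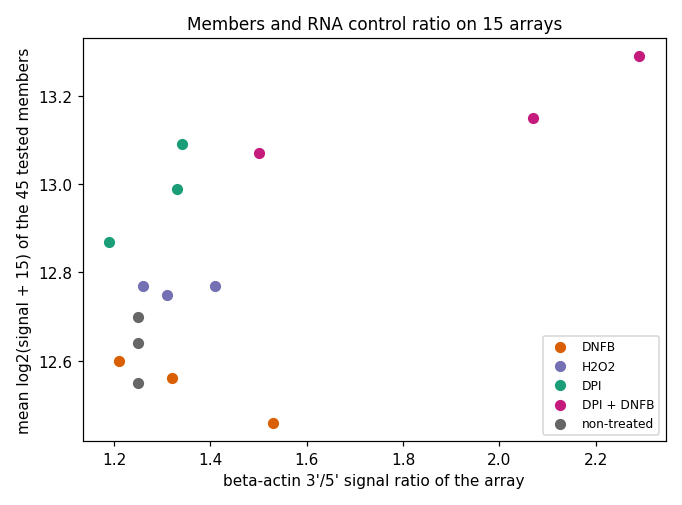
Each point is 1 of the 15 arrays: the x axis is the beta-actin 3'/5' signal ratio and the y axis the mean log2(signal + 15) of the 45 tested members. The DPI arrays reach 12.87 to 13.09 at ratios of 1.19 to 1.34, and the DPI + DNFB arrays 13.07 to 13.29 at 1.50 to 2.29.

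Atp5k (chr5:108433246-108434399, GRCm38.p6), subunit e, which helps ATP synthase form dimers, had signals of 21637, 17488 and 25421 with DPI + DNFB, against 9731, 8211 and 9126 in non-treated cells. Every combined-treatment value was far above the highest non-treated value, and the difference was 2.36-fold (1.24 ± 0.14 (SE) on the log2 scale, adjusted p = 1.4e-06). Atp5e had 12616, 10644 and 11961 with DPI + DNFB, so it stood above its non-treated signals on every array (1.11 ± 0.11 (SE) on the log2 scale, adjusted p = 2.8e-07). Atp5d, the delta subunit beside it in the central stalk, had 12021, 9789.9 and 13643 with DPI + DNFB, against 6648, 5856 and 5976 in non-treated cells. The groups were far apart (0.93 ± 0.12 (SE) on the log2 scale, adjusted p = 1.1e-05). Atp5j2, subunit f, rose by 0.86, Atp5mpl by 0.82, Atp5h by 0.67 and Atp5j by 0.62. Subunit c showed 0.54 for Atp5g1 and 0.53 for Atp5g2, which passed, and 0.15 for Atp5g3, which did not.

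In complex IV, 12 of the 14 tested members rose. Cox6b1 (chr7:30616971-30626114), which lies on the side of the enzyme that faces cytochrome c, had 33755, 28515 and 42574 with DPI + DNFB, against 16676, 15807 and 15666 in non-treated cells. The lowest DPI + DNFB value was well above the highest non-treated value (1.10 ± 0.12 (SE) on the log2 scale, adjusted p = 1.43e-06). Cox6a1 had 65208, 55493 and 78675 with DPI + DNFB, against 39327, 33281 and 33391 in non-treated cells, with no overlap (0.90 ± 0.15 (SE) on the log2 scale, adjusted p = 0.000156). Cox6a2, its muscle isoform, had 623, 1091 and 1217 with DPI + DNFB, all above its non-treated signals but spread widely (1.26 ± 0.27 (SE) on the log2 scale, adjusted p = 0.00141). Cox5b rose by 0.84, Cox7a2 by 0.78, Cox4i1, the common form of subunit 4, by 0.65 and Cox5a by 0.62. Cox7c was measured here by a faint probe set (-0.21, adjusted p = 0.625) and did not pass.

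In complex III, Uqcr11 (chr10:80402997-80406821), a very small subunit, had 10689, 8375 and 12096 with DPI + DNFB, against 5682, 4649 and 4528 in non-treated cells. Replicate 3 was the highest and replicate 2 the lowest, and all 3 lay above the non-treated arrays (1.06 ± 0.14 (SE) on the log2 scale, adjusted p = 7.4e-06). Uqcrq had 8918, 9564 and 10453 with DPI + DNFB and was 1.99-fold higher (0.99 ± 0.12 (SE) on the log2 scale, adjusted p = 3.65e-06). Uqcr10 and Uqcrb each rose by 0.89. Cyc1 had 13163, 11736 and 14834 with DPI + DNFB, above every non-treated signal, whereas with DNFB alone it had been below them (0.56 ± 0.11 (SE) on the log2 scale, adjusted p = 0.000613). Uqcrc1 rose by 0.45. Cycs had 48108, 41772 and 50045 with DPI + DNFB, against 26360.2, 28155 and 31439 in non-treated cells, and the groups did not overlap (0.70 ± 0.12 (SE) on the log2 scale, adjusted p = 0.000131). After quantile normalization Cycs and Cox5a were at -0.021 and -0.013 and did not pass.

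Uqcrfs1 (chr13:30540312-30545316), the Rieske iron-sulfur protein that takes electrons from ubiquinol, ran the other way. It had 3465, 2849 and 2986 with DPI + DNFB, against 4986, 3784 and 4454 in non-treated cells. The highest combined-treatment value was below the lowest non-treated value (-0.50 ± 0.13 (SE) on the log2 scale, adjusted p = 0.00654), and it was 1 of the 2 members whose signal over the 15 arrays correlated negatively with the mean of the members, Cox7c being the other. Atp5a1 had 7982, 7814 and 8014 with DPI + DNFB, close together and below all 3 of its non-treated signals (-0.31 ± 0.12 (SE) on the log2 scale, adjusted p = 0.043). Its other probe sets did not show the same: the second brightest was at -0.043 (adjusted p = 0.775), and a fainter one rose by 1.14 (adjusted p = 0.00215). The fall of Atp5a1 did not pass without non-treated replicate 1 or 3, DNFB replicate 1 or 3, H2O2 replicate 3 or any of the DPI + DNFB replicates.

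In complex II, 1 of 4 members rose with DPI + DNFB over non-treated cells. Sdhb had 7218, 7006 and 8500.1 with DPI + DNFB, against 5726, 5312 and 5665 in non-treated cells, and was the one that rose (0.44 ± 0.10 (SE) on the log2 scale, adjusted p = 0.00224). Sdha had 2830.2, 2516 and 2693 with DPI + DNFB, within the range of its non-treated signals or just below it (-0.11, adjusted p = 0.478). Sdhc had 1995, 2176 and 2093 with DPI + DNFB, which overlapped with non-treated cells (-0.012), and Sdhd differed by -0.031. With 4 genes, no test of complex II against the others was run.

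**Figure D4:**
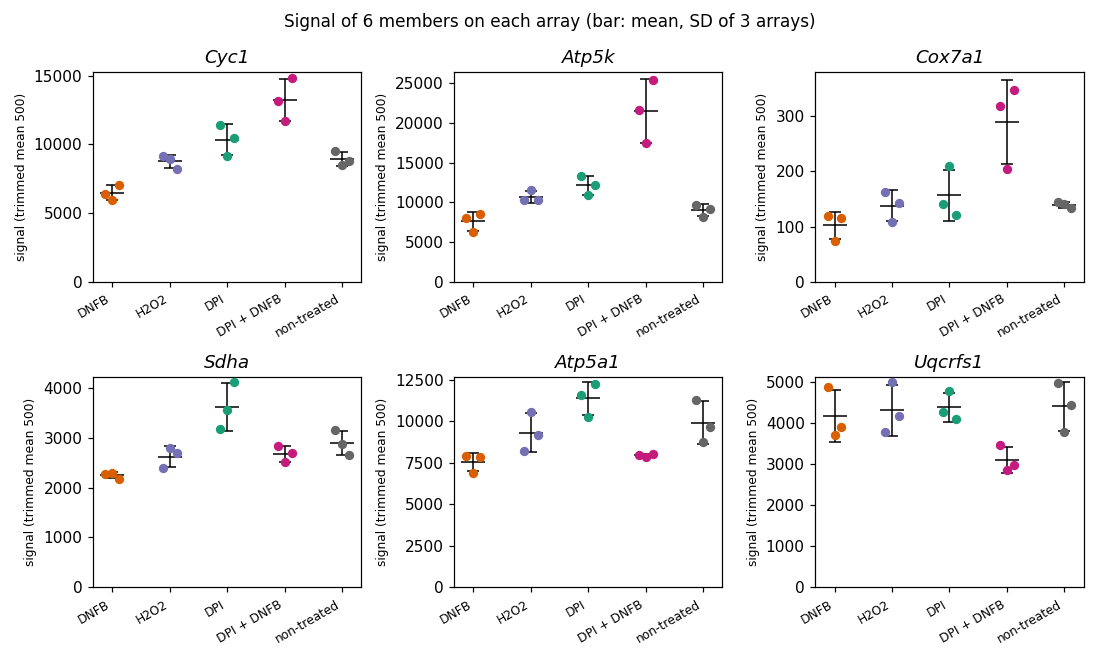
Points are the signals of 6 members on each array (y axis, trimmed mean of 500), by group (x axis), with the mean and SD of 3 arrays. Cyc1, Atp5k and Cox7a1 were highest with DPI + DNFB, Sdha and Atp5a1 were highest with DPI alone, and Uqcrfs1 was lowest with DPI + DNFB.

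The promoters of the members were read from RefSeq windows on GRCm38.p6 that run from 250 bases before to 50 after each gene's start, and 36 of the 48 members had a window. The windows were searched on both strands for 3 short words known from promoters of respiratory genes. The word CCGGAAG, the core bound by ETS proteins such as GABP (NRF-2), was in 13 of 36 members, or 36.1%, against 9.93% of 27025 genes. The word GCATGCGC, the core bound by NRF-1, was in 8 of 36, or 22.2%, against 3.05%. The word AAGATGG, the core bound by YY1, was in 4 of 36, or 11.1%, against 7.28%. The ETS word ends and the YY1 word begins with the same 3 letters, so they can overlap; they did so in 0 members and 5 of all genes, and the other pairs overlapped in 0. Members are related in function by the rule, and a match is a description of the letters and not a measured site.

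Stretches are shown for 4 members that rose with DPI + DNFB and carry at least 1 of the first 2 words and for Uqcrfs1, which fell and carries neither in its window. Each runs 5′ to 3′ from 180 bases before the start through the first 20 bases of the transcript, and capitals mark ETS and NRF-1 words on either strand. Atp5k is chr5:108434380-108434579 on the minus strand, Cox6a1 chr5:115348939-115349138 on the minus strand, Uqcr11 chr10:80406802-80407001 on the minus strand, Cycs chr6:50566550-50566749 on the minus strand and Uqcrfs1 chr13:30545297-30545496 on the minus strand.
Atp5k: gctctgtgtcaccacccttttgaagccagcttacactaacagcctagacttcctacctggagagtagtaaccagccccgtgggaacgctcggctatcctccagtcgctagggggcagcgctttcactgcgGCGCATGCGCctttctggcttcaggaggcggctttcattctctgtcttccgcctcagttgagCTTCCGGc
Cox6a1: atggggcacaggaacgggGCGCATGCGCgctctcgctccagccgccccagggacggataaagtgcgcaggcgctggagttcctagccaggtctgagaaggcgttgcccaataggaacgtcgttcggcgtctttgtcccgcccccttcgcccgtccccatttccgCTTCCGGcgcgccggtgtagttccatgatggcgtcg
Uqcr11: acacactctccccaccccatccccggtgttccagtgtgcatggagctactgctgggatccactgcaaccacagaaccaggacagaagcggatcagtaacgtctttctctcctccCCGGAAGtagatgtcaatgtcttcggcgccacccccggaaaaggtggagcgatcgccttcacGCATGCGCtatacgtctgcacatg
Cycs: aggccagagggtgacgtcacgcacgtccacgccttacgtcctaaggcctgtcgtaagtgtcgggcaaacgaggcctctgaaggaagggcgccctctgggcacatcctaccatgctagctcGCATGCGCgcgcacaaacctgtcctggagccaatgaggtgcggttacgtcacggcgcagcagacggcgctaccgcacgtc
Uqcrfs1: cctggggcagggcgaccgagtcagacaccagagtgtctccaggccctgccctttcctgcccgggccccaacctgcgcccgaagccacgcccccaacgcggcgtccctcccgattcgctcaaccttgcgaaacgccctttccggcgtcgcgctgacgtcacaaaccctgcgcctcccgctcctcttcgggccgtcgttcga

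In Atp5k the NRF-1 word, read on both strands as a palindrome, begins 50 bases before the start and the ETS word follows the start. In Cox6a1 the NRF-1 word begins 162 bases and the ETS word 16 bases before it. In Uqcr11 the ETS word begins 66 bases and the NRF-1 word 4 bases before the start, and Cycs has an NRF-1 word 60 bases before it. Among members with a window that were tested, the 16 with an ETS or NRF-1 word had a median of 0.58 with DPI + DNFB over non-treated cells, and 14 rose and 0 fell. The 17 without had a median of 0.46, and 10 rose and 1 fell. With DPI alone the medians were 0.40 and 0.31, and 10 of the 16 and 9 of the 17 rose. For the DNFB effect with DPI minus that without DPI, the order turned, with medians of 0.26 and 0.30. These are descriptions, and the difference between the sets was not tested.

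The allergen's own group served as a second baseline, which shows what DPI changed in cells that also had DNFB. DPI + DNFB exceeded DNFB for 34 of the 45 members and was lower for 1, or 75.6% and 2.22%, where 22.9% of all genes were higher and 21.3% lower. In the top 10% of mean signal 42.2% were higher. The members' median was 0.68, beside 0.10 over all genes, and it was 0.60 within the arrays deposited at 250 and 0.72 within those deposited at 500. Atp5k was 2.81-fold higher (1.49 ± 0.14 (SE) on the log2 scale, adjusted p = 4.68e-08), with the DPI + DNFB and DNFB signals given above. Cox7a1, the muscle isoform of subunit 7A, had 319, 204 and 347 with DPI + DNFB, against 119, 74.4 and 115 with DNFB. Both groups were faint, and they did not overlap (1.37 ± 0.30 (SE) on the log2 scale, adjusted p = 0.000917).

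Cyc1 was 2.04-fold higher with DPI + DNFB than with DNFB (1.03 ± 0.11 (SE) on the log2 scale, adjusted p = 4e-07). Cox6b1 had 14594, 14418 and 15608 with DNFB, all under the DPI + DNFB values (1.21 ± 0.12 (SE) on the log2 scale, adjusted p = 1.54e-07). Uqcr11 was higher by 1.19, Atp5j2 by 1.10, Atp5e by 1.10, Cox6a1 by 1.09, Cox6a2 by 1.05 and Uqcrb by 1.04. On its second probe set Uqcrb was at 0.0013 (adjusted p = 0.994) and did not pass. In complex II Sdhb alone passed (0.56 ± 0.10 (SE) on the log2 scale, adjusted p = 0.000142), and Sdha (0.25, adjusted p = 0.0749) and Sdhd (0.28, adjusted p = 0.0914) did not. Uqcrfs1 had 4891, 3721 and 3913 with DNFB, all above its DPI + DNFB signals, and was the member that was lower (-0.42 ± 0.13 (SE) on the log2 scale, adjusted p = 0.0145). Without DNFB replicate 1 or DPI + DNFB replicate 2 it did not pass. With the beta-actin ratio as a covariate 23 members were higher and 0 lower, and 2987 genes passed in all, against 5617 without it. The members' median was then 0.52, beside 0.067 over all genes. With DPI + DNFB replicate 2 alone it was 0.565, beside 0.066.

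Against DPI alone, which asks what DNFB added in cells that had DPI, DPI + DNFB was higher for 16 of the 45 members and lower for 5, where 14.1% of all genes were higher and 13.7% lower. In the top 10% of mean signal 21.6% were higher and 22.7% lower. The members' median was 0.23, beside 0.080 over all genes. Within the arrays deposited at 250 it was 0.095, beside 0.070 over all genes. Within those deposited at 500 it was 0.29, beside 0.077. This split changed with the scaling and the covariate. After median centring 5 were higher and 9 lower, with medians of -0.024 over the members and -0.17 over all genes. After quantile normalization 8 were higher and 6 lower, with medians of 0.028 and -0.0026. With the beta-actin ratio as a covariate 0 passed either way, and 542 genes passed in all, against 3530 without it. The members' median was then 0.11, beside 0.044 over all genes. With DPI + DNFB replicate 2 alone it was 0.14, beside 0.047. Leaving out DPI + DNFB replicate 3 left 9 higher, DPI replicate 2 11 and DPI replicate 3 12.

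The higher members came from complexes III, IV and V and included Cycs. Cox7a1 had 319, 204 and 347 with DPI + DNFB, against 140.3, 209 and 121 with DPI, where the lowest DPI + DNFB value lay just under the highest DPI value (0.83 ± 0.30 (SE) on the log2 scale, adjusted p = 0.0449). Atp5k exceeded its DPI signals of 13361, 10965 and 12243 on all 3 arrays (0.81 ± 0.14 (SE) on the log2 scale, adjusted p = 0.000232). Cox6b1 was higher by 0.73, Cox6a1 by 0.67, Atp5e by 0.66, Uqcr11 by 0.64, Atp5j2 by 0.60, Atp5d by 0.54 and Cycs by 0.51.

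The 5 lower members came from complexes II, III and V. Sdhc had 1995, 2176 and 2093 with DPI + DNFB, and each value was below the DPI signals given above (-0.52 ± 0.11 (SE) on the log2 scale, adjusted p = 0.00127). Sdha was lower by the same reading, with no overlap (-0.42 ± 0.11 (SE) on the log2 scale, adjusted p = 0.00801). Atp5a1 had 11596, 10273 and 12253 with DPI, all above its DPI + DNFB signals (-0.51 ± 0.12 (SE) on the log2 scale, adjusted p = 0.00244). Its second brightest probe set was also lower (-0.33, adjusted p = 0.0197), and a fainter one was higher (0.77, adjusted p = 0.0342). Atp5c1 had 15204, 18291 and 15798 with DPI + DNFB, against 24038, 18711 and 20778 with DPI, and the groups were apart by a narrow margin (-0.36 ± 0.11 (SE) on the log2 scale, adjusted p = 0.016). Uqcrfs1 was lower by 0.50 (-0.50 ± 0.13 (SE) on the log2 scale, adjusted p = 0.00838).

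Whether the effect of DNFB differed with and without DPI was tested as an interaction. The DNFB effect was higher with DPI than without it for 15 of the 45 members and lower for 1, or 33.3% and 2.22%. It was higher for 17.3% of all genes and lower for 13.8%. In the top 10% of mean signal it was higher for 25% and lower for 22.2%. The members' median was 0.30, beside 0.14 over all genes. Within the arrays deposited at 250 it was 0.148, beside 0.145 over all genes, so the members did not stand apart there. Within those deposited at 500 it was 0.45, beside 0.14. The largest were Cox7a1 (1.25 ± 0.42 (SE) on the log2 scale, adjusted p = 0.0296) and Atp5k (1.06 ± 0.19 (SE) on the log2 scale, adjusted p = 0.000289). For Atp5k, DPI + DNFB over DPI alone was 0.81 and DNFB over non-treated cells was -0.25. Cyc1 stood at 0.36 with DPI and -0.47 without it, a difference of 0.82 ± 0.16 (adjusted p = 0.000446). Sdhc was the member with a lower effect: -0.52 with DPI and -0.013 without it (-0.51 ± 0.15 (SE) on the log2 scale, adjusted p = 0.0144). After median centring 4 members were higher and 3 lower, with medians of 0.023 over the members and -0.14 over all genes. With the beta-actin ratio as a covariate 5 were higher and 0 lower.

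Some complex IV subunits come in isoforms known from particular tissues. Cox4i2, the isoform known from lung, was near the filter and uneven, with 203, 89.7 and 143 for DPI + DNFB, against 181, 47.0 and 112 in non-treated cells, and passed in no comparison. Cox8c, known from testis, had 785, 715 and 791 with DPI + DNFB, against 462, 430.1 and 569 in non-treated cells, and all DPI + DNFB values were higher (0.64 ± 0.19 (SE) on the log2 scale, adjusted p = 0.012). The muscle isoforms Cox6a2 and Cox7a1 passed as described above. The testis isoforms Cox6b2 and Cox7b2 and the muscle isoform Cox8b were below the filter, with signals of at most 111.5, 88.0 and 101.9 on any array, and were not tested.

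Several members had more than 1 usable probe set, and these did not always agree in sign. For DPI + DNFB over non-treated cells 28 members had a second kept probe set. Its change had the same sign as that of the brightest in 23, and the medians were 0.63 for the brightest and 0.44 for the second. Uqcrb rose by 0.89 on its brightest probe set and was at -0.067 (adjusted p = 0.689) on the second. Uqcrc2, a core protein of complex III, rose by 0.45 and was at -0.24 (adjusted p = 0.0742) on the second. Atp5pb, subunit b of the peripheral stalk, rose by 0.39 and was at -0.013 (adjusted p = 0.944). Cox7a2l rose by 0.46 and was at 0.11 (adjusted p = 0.486) on the second, of the same sign but not passing. Atp5g2 rose by 0.53 and fell by 1.41 on a faint second probe set (adjusted p = 0.0266). For Atp5k, Cox6b1, Cox5b, Atp5d and Atp5j2 both passed in the same direction. Against DPI alone, 16 members that passed had another kept probe set, and in 7 of them, Atp5a1, Atp5c1, Cox5a, Cycs, Sdha, Uqcrb and Uqcrq, at least 1 had the opposite sign. That was so for 3 of 19 with DPI over non-treated cells (Atp5c1, Atp5g2 and Sdha), 6 of 23 with DPI + DNFB over non-treated cells and 2 of 22 over DNFB. A shared sign could still hide a gap. Over DNFB, Uqcrb was at 1.04 on its brightest probe set and 0.0013 on the second. Uqcrc2 was at 0.63 and 0.022 (adjusted p = 0.889 on the second). In all, 9 of the 48 members were represented by probe sets whose names mark probes shared with other transcripts, and many of these genes have processed copies in the genome.

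**Figure D5:**
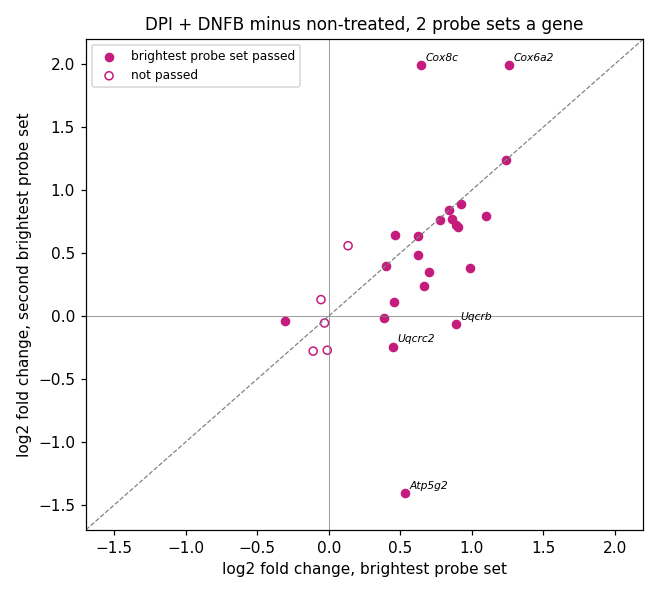
For the 28 members with 2 kept probe sets, the x axis is the log2 fold change of DPI + DNFB over non-treated cells on the brightest probe set and the y axis that on the second brightest; filled points passed on the brightest, and the dashed line marks equality. Uqcrb, Uqcrc2 and Atp5g2 are the named points below the line, and Cox6a2 and Cox8c lie above it at 1.99 on the second.

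Genes around the members were read from lists of related genes. Across all tested genes 15% rose and 18.7% fell with DPI + DNFB over non-treated cells. The shares were 13.3% and 18.4% with DPI alone, and 10.5% and 13.9% with DNFB alone. Of 35 tested subunits of complex I, the entry point for electrons from NADH, 24 rose and 1 fell with DPI + DNFB over non-treated cells, 16 rose and 0 fell with DPI alone, and 9 fell and 0 rose with DNFB alone. In that order 68.6%, 45.7% and 0% of these subunits rose, and 2.86%, 0% and 25.7% fell. Their medians were 0.58, 0.28 and -0.20. Ndufv3 had a group signal of 17300 with DPI + DNFB, against 7359 in non-treated cells (log2 difference 1.23 ± 0.14, adjusted p = 1.96e-06). Ndufs7 had 7963 with DPI + DNFB, against 3406 in non-treated cells, a rise of 1.22, and with DNFB alone it fell by 0.47 to 2449.

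The citric acid cycle list, which holds the enzymes around complex II, differed in its counts. Of 16 tested genes 7 fell and 3 rose with DPI + DNFB over non-treated cells, or 43.8% and 18.8%. With DNFB 7 fell and 0 rose (43.8% and 0%), and with DPI 5 rose and 3 fell (31.2% and 18.8%). Dlst had 2145 with DPI + DNFB, against 3621 in non-treated cells (-0.75 ± 0.097, adjusted p = 8.53e-06). Idh3a had 2638 with DPI + DNFB, against 4207 in non-treated cells (-0.67 ± 0.12, adjusted p = 0.000194). Ogdh had 810.5 with DPI + DNFB, against 1323 in non-treated cells (-0.70 ± 0.14, adjusted p = 0.000781). These falls were not particular to the combined treatment. Dlst and Idh3a also fell with DNFB alone, to 2368 and 2676, and Idh3a fell with H2O2, to 2652. Ogdh also fell with DPI alone, to 809.9.

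Of 37 tested assembly factors 10 rose and 11 fell with DPI + DNFB over non-treated cells, or 27% and 29.7%. With DPI 8 rose and 13 fell (21.6% and 35.1%), and with DNFB 2 rose and 10 fell (5.41% and 27%). Ttc19, a complex III assembly factor, had 475.7 with DPI + DNFB, against 156 in non-treated cells (1.52 ± 0.26, adjusted p = 0.000126). Pet100, for complex IV, had 3658 with DPI + DNFB, against 1571 in non-treated cells (1.21 ± 0.14, adjusted p = 1.6e-06). Bcs1l, which inserts the Rieske protein into complex III, fell with DNFB alone to 305.1, against 769.5 in non-treated cells (-1.29 ± 0.17, adjusted p = 8.6e-06). Bcs1l also fell with H2O2, to 383.4 (-0.98 ± 0.17, adjusted p = 0.000169). It had 427.7 with DPI alone and 781.4 with DPI + DNFB. Sdhaf1, for complex II, had 350.6 with DPI, against 885.9 in non-treated cells (-1.30 ± 0.18, adjusted p = 1.99e-05).

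Of 19 tested regulators of mitochondrial biogenesis 3 rose and 7 fell with DPI + DNFB over non-treated cells, or 15.8% and 36.8%. With DPI 4 rose and 7 fell (21.1% and 36.8%), and with DNFB 4 rose and 2 fell (21.1% and 10.5%). The share that rose with DPI + DNFB was thus near the background. Gabpb1, a subunit of GABP, had 796.5 with DNFB, against 401.6 in non-treated cells (0.96 ± 0.18, adjusted p = 0.000388). Ppargc1b, a coactivator of respiratory genes, had 85.3 with DNFB, against 412 in non-treated cells (-2.09 ± 0.40, adjusted p = 0.000609). Esrra, a nuclear receptor it works with, had 454.8 with DNFB, against 835.1 in non-treated cells (-0.86 ± 0.17, adjusted p = 0.000867). Esrra also fell with H2O2, to 459.9 (-0.84 ± 0.17, adjusted p = 0.000946). Tefm, an elongation factor of mitochondrial transcription, had 74.3 with DPI, against 564.6 in non-treated cells (-2.70 ± 0.23, adjusted p = 4.83e-08). Mterf1a, also of mitochondrial transcription, had 89.5 with DPI, against 627.1 in non-treated cells (-2.62 ± 0.34, adjusted p = 7.47e-06). Atpif1, the inhibitor protein of ATP synthase, had 14730 with DPI + DNFB, against 10900 in non-treated cells (0.43 ± 0.14, adjusted p = 0.0217).

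Over the 15 arrays 28 of the 45 tested members correlated with the mean of the members at more than 0.8, and the median correlation was 0.885; the arrays share their groups and the RNA control differences above, and no p is given. Outside the lists, the genes whose log2 signal followed that mean most closely were Micos10 (r = 0.985), a subunit of the complex that shapes the inner mitochondrial membrane, Selenoh (r = 0.981) and Nudc (r = 0.98). Micos10 had a group signal of 16450 with DPI + DNFB, 12870 with DPI, 11040 with H2O2, 8482 with DNFB and 8869 in non-treated cells.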

How the data were processed

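Total RNA of 15 samples was hybridised to mouse expression arrays. The deposited values are MAS5 signal intensities made by the authors in Affymetrix Expression Console, per the submitters' processing notes; versions are not given. Labelling used the 3' IVT Express kit, per the labels' protocols. The deposited 2% trimmed means were 250 on 6 arrays (replicate 1 of every group and DNFB replicate 3) and 500 on 9, so each array was rescaled to 500 because an earlier look at these data had shown both targets. Signals were taken as log2(signal + 15), probe sets with a mean under the 40th percentile (6.22) were left out, and the brightest of a gene's remaining probe sets was kept, giving 12701 genes.

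The 15 arrays were fitted together, with a mean per group, in limma 3.58.1 in R 4.3.3 (eBayes with trend, 10 residual degrees of freedom), with Benjamini-Hochberg adjustment over all genes within each of 8 comparisons, at an adjusted p below 0.05. The fit was tested on simulated data. Group signals of list genes are back-transformed means of log2 values. Named members were those that passed, up to the 8 largest rises and falls per comparison, with core subunits and tissue isoforms named whatever their values, and up to 3 genes per list and comparison. Members and lists were chosen with earlier results of these data known. Replicate numbers were left out of the main fit. Deviations from the group means correlated at a median of 0.0738 between same-numbered arrays of different groups, and -0.0327 between other numbers. Of 30 same-numbered pairs 9 were above 0.1. The numbers may thus mark some shared variation, and whether they pair the samples was not settled. Members were matched to the rule by the symbols of the platform annotation. Genes are named by the RefSeq symbol of the same gene identifier, or by the platform symbol where RefSeq had none. The precision is limited by the number of arrays.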

Additional observations from a re-analysis of the deposited data

Results flagged for a closer look

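For 16 members the effect of DNFB with DPI differed from its effect without DPI by the interaction test in limma, which is what put them here. On the log2 scale the difference was 1.25 for Cox7a1, 1.06 for Atp5k, 0.85 for Cox6a1, 0.84 for Atp5j2, 0.84 for Cox6b1 and 0.82 for Cyc1. It was 0.77 for Uqcr11, 0.65 for Uqcrb, 0.64 for Atp5e, 0.60 for Cox5b, 0.56 for Cycs and 0.56 for Cox5a. The smallest positive differences were 0.48 for Cox7a2, 0.47 for Uqcr10 and 0.44 for Atp5g1, and Sdhc was the member with a negative difference, -0.51. All 16 rest on the DPI + DNFB arrays, whose beta-actin 3'/5' ratios were 1.50 to 2.29, against 1.19 to 1.53 on the other arrays. With that ratio as a covariate 5 members were higher and 0 lower, and 2552 genes passed in all, against 3945 without it. With DPI + DNFB replicate 2 as the lone array of its group 6 were higher and 0 lower.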

How the results depend on the processing

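Counts below are of members higher and lower among those tested. Of 2812 recomputed values for the 88 gene and comparison pairs that passed, 2301 kept direction and call, 503 kept direction only and 8 changed sign. Some fits drop an array of a group outside the comparison or change only the variance model. In those the estimate could not move, so part of the kept directions was fixed in advance.

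Leaving out 1 array at a time gave 0 to 1 higher and 1 to 5 lower for DNFB over non-treated cells, 0 to 4 and 0 for H2O2, 13 to 27 and 0 for DPI, and 29 to 33 and 1 to 2 for DPI + DNFB. It gave 31 to 34 and 0 to 1 for DPI + DNFB over DNFB, 9 to 19 and 4 to 7 over DPI, 0 and 1 to 13 for DNFB over H2O2, and 11 to 19 and 1 for the interaction.

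Quantile normalization, which sets equal ranks equal on every array, gave 0 higher and 1 lower for H2O2, 11 higher for DPI, 4 lower for DPI + DNFB over non-treated cells, 8 higher over DPI, 2 lower for DNFB over H2O2, and 9 and 0 for the interaction. Median centring gave 1 lower for DNFB, 0 higher for H2O2, 20 higher for DPI + DNFB over non-treated cells, 5 and 9 over DPI, 4 lower for DNFB over H2O2 and 4 and 3 for the interaction. Values as deposited, with both scaling targets within groups, gave 4 higher and 0 lower for DPI + DNFB over DNFB and 0 in the other comparisons, of 7 to 829 genes that passed in all. With the beta-actin ratio as a covariate DNFB over H2O2 had 14 lower and the interaction 5 and 0. DPI + DNFB gave 8 and 0 over non-treated cells, 0 lower over DNFB and 0 and 0 over DPI. Fewer genes passed in all: 1068 over non-treated cells, against 4291 without the covariate, and 542 over DPI, against 3530. With DPI + DNFB replicates 1 and 3 left out together, chosen after seeing the data, it gave 20 and 1 over non-treated cells, 3 and 3 over DPI, and 6 and 0 for the interaction, the lone array being assumed to vary like the others. On arrays deposited at 250, with 1 array in every group but DNFB and the lone arrays assumed to vary like the 2 DNFB arrays, counts were 1 and 3 for DNFB, 1 higher for H2O2, 11 higher for DPI, 20 and 1 for DPI + DNFB, 0 lower over DNFB, 3 and 3 over DPI, 0 lower for DNFB over H2O2, and 5 and 0 for the interaction. On those deposited at 500, with 1 DNFB array and 2 in each other group, they were 0 lower for DNFB, 12 higher for DPI, 1 lower for DPI + DNFB and 0 lower over DNFB, 0 lower for DNFB over H2O2, and 7 and 0 for the interaction. With that target as a block H2O2 had 5 higher and DNFB over H2O2 14 lower.

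The replicate block, which treats same-numbered samples as sets, gave 6 higher for H2O2 and 14 lower for DNFB over H2O2. It gave 30, 33 and 34 higher for DPI, DPI + DNFB over non-treated cells and DPI + DNFB over DNFB. Fitting only the groups compared gave 5 higher for H2O2, 1 lower for DPI + DNFB, 9 higher over DPI and 14 lower for DNFB over H2O2. Without the variance trend, counts were 3 lower for DNFB, 0 higher for H2O2, 15 higher for DPI, 1 lower for DPI + DNFB and 3 lower for DNFB over H2O2. Without the signal filter they were 3 lower for DNFB, 1 lower for DPI + DNFB and 4 lower for DNFB over H2O2. The mean of kept probe sets gave 3 lower for DNFB, 1 higher for H2O2, 1 lower for DPI, 1 lower for DPI + DNFB and 2 lower over DPI. The second brightest probe set, also added later, gave 1 lower for DNFB, 0 higher and 1 lower for H2O2, 1 lower for DPI, 2 lower for DPI + DNFB over DNFB, 9 higher over DPI, 3 lower for DNFB over H2O2 and 7 higher for the interaction. Pseudocounts of 1 and 50 and a stricter filter moved no count by over that factor, 1.5 times. Faint members, such as Cox4i2 and Cox7c, had wide errors, and their changes were not resolved with 3 arrays a group.

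Signs turned as follows, and the cause was not tested. After quantile normalization Cycs was at -0.021 and Cox5a at -0.013 for DPI + DNFB over non-treated cells, Cycs at -0.031 over DNFB and Cox5a at -0.056 over DPI. With the mean of probe sets Sdha was at -0.065 for DPI and Atp5a1 at 0.26 for DPI + DNFB. On the second probe set Atp5c1 was at 0.21 for DPI + DNFB over DPI and Uqcrb at -0.18 for the interaction. Those are the 8; Sdhc for DPI + DNFB over DNFB had not passed (0.0011 on its brightest probe set) and passed at -0.42 on the second.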
